A study of Mus musculus with 35 samples.

Results

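The genes described here encode the nuclear subunits of respiratory complexes III, IV and V, measured in the apex of the mouse heart 3 days after transaortic constriction (TAC) or a sham operation. They were chosen by symbol: every gene whose name starts with Uqcr, with Atp5, or with Cox followed by 4, 5, 6, 7 or 8, without names carrying -ps, plus Cyc1. This rule took 44 of the 27012 genes in the table: 9 of complex III, 18 of complex IV and 17 of complex V. A mean normalised count of at least 10 over all libraries was required for testing, and 42 of the 44 passed it. The 2 that did not were Cox6b2, the testis form of subunit 6b, with a mean of 9.42, and Cox7b2, with a mean of 1.30. The rule also caught Cox6c2, which the GENCODE vM21 annotation lists as a processed pseudogene, Cox7a2l, a factor of respiratory supercomplexes, and Atp5s, the coupling factor known as factor B. It left out 6 pseudogenes with -ps names, with means up to 97.7 (Atp5k-ps2). Reads of a subunit gene and of a near-identical copy may have been divided between them, so the values of Cox6c and Cox6c2 in particular are uncertain.

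Complex III passes electrons from ubiquinol to cytochrome c, complex IV (cytochrome c oxidase) passes them on to oxygen, and both pump protons out of the mitochondrial matrix. Complex V, the ATP synthase, lets the protons back in through a rotating ring and makes ATP. The heart depends on this chain for most of its ATP. Some small subunits of complex IV exist in a form typical of heart and skeletal muscle and in a form found in most tissues. The heart forms are encoded by Cox6a2, Cox7a1 and Cox8b, and their general counterparts by Cox6a1, Cox7a2 and Cox8a.

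TAC narrows the aorta with a suture, so that the left ventricle pumps against a higher pressure. The mice were of strain C57Bl/6/FVB and 6 weeks old. WT mice carried a floxed Irs2 gene (IRS2-flox) with no Cre listed. IRS1KO mice carried alphaMHC-Cre and floxed Irs1, and IRS2KO mice carried alphaMHC-Cre and floxed Irs2, so that insulin receptor substrate 1 or 2 was to be deleted where the alpha myosin heavy chain promoter is active, in cardiomyocytes. No group in the labels carries Cre alone or floxed Irs1 without Cre. Each of the 6 groups had 6 libraries, except WT TAC with 5 (replicates 1, 2, 3, 5 and 6). Nothing in the labels states that the libraries are from separate mice, and the p-values speak only for the variation among the libraries of a group, which may be technical.

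Reads counted to genes came to 11707111 to 14609467 per library, and 18599 to 20803 genes had at least 1 read. Irs1 was listed at 0 to 80.3 normalised counts in the IRS1KO libraries against 135 to 343 in the others. Irs2 was at 78.6 to 196 in the IRS2KO libraries against 93.04 to 959 in the others, so these ranges overlapped.

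The subunit genes took a smaller share of all reads after TAC in each genotype. In WT the 44 genes held 2.71 ± 0.132% of the reads in sham hearts (SD, n = 6, range 2.57 to 2.94%) and 2.18 ± 0.279% after TAC (n = 5, range 1.73 to 2.44%). In IRS1KO the share was 2.78 ± 0.277% in sham (range 2.59 to 3.32%) and 1.84 ± 0.274% after TAC (range 1.60 to 2.31%). In IRS2KO it was 2.69 ± 0.138% in sham (range 2.59 to 2.96%) and 1.90 ± 0.378% after TAC (range 1.47 to 2.39%). No TAC library reached the lowest sham library of its genotype. Complex V made up most of this share, with 1.65 ± 0.0750% of the reads in WT sham hearts against 0.577 ± 0.0366% for complex IV and 0.482 ± 0.0227% for complex III. These are values of bulk tissue, in which fewer cells of a type and less RNA per cell cannot be told apart.

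**Figure D1:**
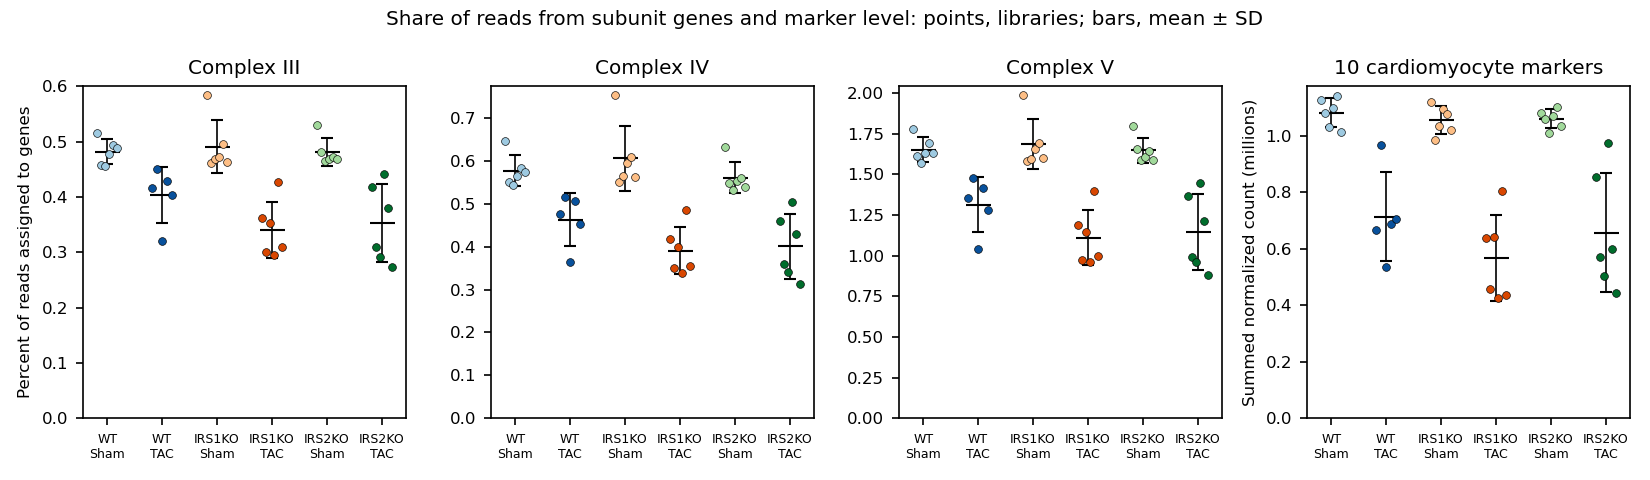
Percent of reads assigned to genes that came from the subunit genes of complexes III, IV and V, and the summed normalised count of 10 cardiomyocyte markers, by group. Each point is a library and bars give mean ± SD. In all 4 panels the TAC libraries lie lower on average than the sham libraries of their genotype, and over the 44 genes together the TAC libraries hold 1.47 to 2.44% of the reads against 2.57 to 3.32% in sham.

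The libraries of a group tended to rank alike for nearly all subunit genes. Within WT TAC, replicate 2 had the highest value for 40 of the 42 tested genes and replicate 3 the lowest for 41. Within IRS2KO TAC, replicate 4 was highest for 39 and replicate 6 lowest for 38. In IRS1KO TAC, replicate 5 was highest for 39. Among sham hearts the library numbered 1 was highest for 36 genes in WT, 41 in IRS1KO and 38 in IRS2KO. Across all 13695 tested genes, WT TAC replicate 2, IRS2KO TAC replicates 4 and 1 and IRS1KO TAC replicate 5 were the TAC libraries nearest to the sham mean of their genotype, at root mean square log2 distances of 0.542, 0.550, 0.695 and 0.720.

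TAC was compared with sham in each genotype by limma on log2(normalised count + 1), with Benjamini-Hochberg adjustment over all 13695 tested genes and a threshold of 0.05. In WT 38 of the 42 subunit genes fell and 2 rose (Cox6a1 and Cox8a), where 26.6% of all tested genes fell and 28.3% rose. The median log2 change of the 42 was -0.52, and that of all tested genes was -0.01. In IRS1KO 40 fell and 1 rose (Cox6a1), against 31.7% of all genes that fell and 32.4% that rose, with medians of -0.84 and -0.01. In IRS2KO 40 fell and 1 rose (again Cox6a1), against 31.1% and 31.3% of all genes, with medians of -0.80 and -0.01. Cox8a did not pass the test in either knockout, and Cox7a2 and Atp5d did not pass it in WT (adjusted p = 0.0557 and 0.0885, limma). The estimates of Cox6a1 and Cox8a lay above 0, and those of the other 40 below 0, in all 3 genotypes and under every alternative scaling, filter, tool and omission of a library that was run.

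The groups were also set side by side without a model. In WT the TAC and sham libraries did not overlap for 30 genes that were lower and 1 that was higher after TAC, where 14.3% and 17.2% of all tested genes behaved so. In IRS1KO this held for 38 lower genes and 1 higher (16.7% and 20.5% of all genes). In IRS2KO it held for 33 lower genes and 1 higher (13.6% and 15.7%). The higher gene was Cox6a1 each time.

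The scaling of the libraries set how many genes passed in WT. When all libraries were brought to one total, the all-gene median moved to 0.24 in WT, 0.30 in IRS1KO and 0.33 in IRS2KO. The median of the subunit genes then stood at -0.26, -0.53 and -0.46. On that scale 23, 39 and 36 subunit genes fell, and 2 rose in each genotype (Cox6a1 and Cox8a). The falls lost in WT were those of Cyc1, Uqcr10, Uqcrb, Uqcrc2, Uqcrh, Cox5a, Cox6b1, Cox6c2, Cox7a2l, Atp5f1, Atp5g2, Atp5g3, Atp5j2, Atp5l and Atp5mpl. Cox7a2l was lost in IRS1KO, and Cox4i2, Cox7a2l, Atp5d and Atp5g2 in IRS2KO. With quantile normalisation 31, 40 and 40 fell, with medians of -0.35, -0.72 and -0.64, and Uqcrc2, Uqcrh, Atp5a1, Atp5b, Atp5f1, Atp5g3 and Atp5mpl no longer passed in WT. As deposited, but without replicate 3 of WT TAC, 26 fell in WT.

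**Figure D2:**
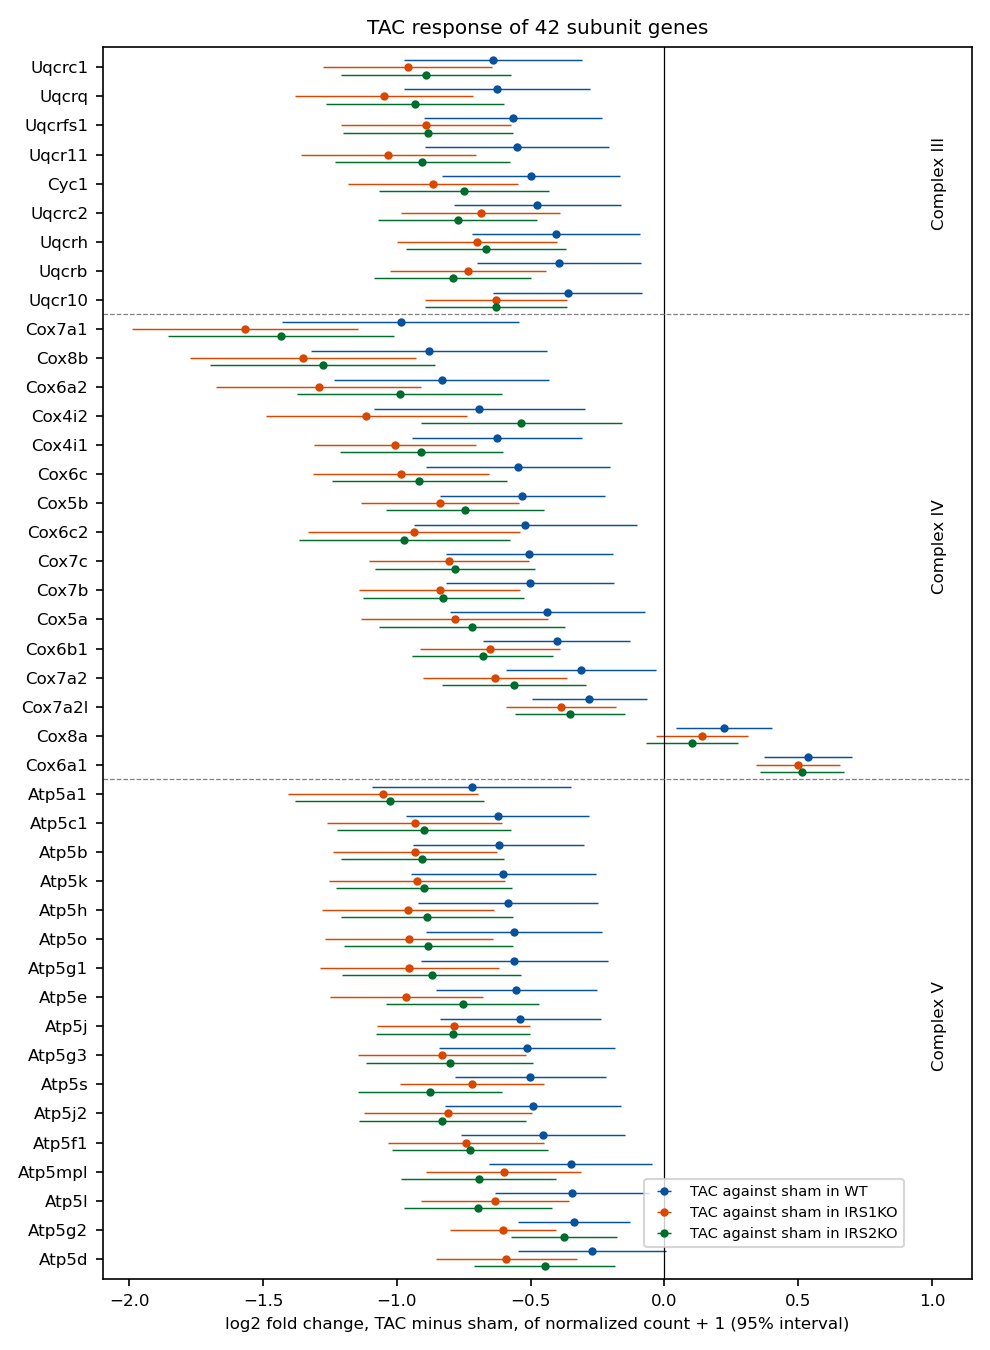
Log2 fold change after TAC (TAC minus sham, of normalised count + 1) of the 42 tested subunit genes, with 95% intervals, grouped by complex; blue is WT, orange IRS1KO and green IRS2KO. Cox7a1, Cox8b and Cox6a2 lie farthest to the left in WT and IRS1KO, and Cox6a1 and Cox8a are the only genes to the right of 0.

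The medians of the 3 complexes lay close together. In WT the median log2 change was -0.50 for the 9 genes of complex III, -0.51 for the 16 tested genes of complex IV and -0.54 for the 17 of complex V. In IRS1KO the medians were -0.86, -0.84 and -0.83. In IRS2KO they were -0.79, -0.76 and -0.83. All 9 genes of complex III fell in every genotype. In complex V 16 of 17 fell in WT and all 17 in both knockouts. Complex IV had the widest spread, from -0.99 (Cox7a1) to 0.54 (Cox6a1) in WT.

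In complex III, the catalytic subunits Cyc1 (cytochrome c1) and Uqcrfs1 (the Rieske iron-sulfur protein) were 1.39-fold and 1.46-fold lower after TAC in WT. Their folds were 1.79 and 1.82 in IRS1KO and 1.61 and 1.76 in IRS2KO. Uqcrc1, a core protein on the matrix side, had the largest fall of the complex in WT. Its sham libraries ranged from 13918 to 15952 normalised counts with a median of 14741, and its WT TAC libraries stood at 9328, 12909, 6697, 10428 and 9494. The ranges did not overlap, and the log2 change was -0.64 (SE 0.16, adjusted p = 0.00157, limma). In IRS1KO, Uqcrc1 went from 12868 to 16293 (median 13801) in sham to 5739 to 10296 (median 7005) after TAC. In IRS2KO it went from 14192 to 16403 (median 14950) to 5495 to 12361 (median 7896). Both knockouts were again without overlap, with log2 changes of -0.96 (SE 0.16) and -0.89 (SE 0.16). Uqcr10, among the smallest subunits of the complex, had the smallest fall in WT. It ranged from 3012 to 3780 (median 3229) in WT sham and stood at 2652, 3065, 2040, 2794 and 2539 after TAC. Here WT TAC replicate 2 lay inside the sham range, and the log2 change was -0.36 (SE 0.14, adjusted p = 0.0260, limma). This call of Uqcr10 was lost without replicate 1 or 5 of WT sham (adjusted p = 0.0567 and 0.0530) or replicate 3 of WT TAC (0.106), and at the same total per library (-0.10, adjusted p = 0.362). In IRS1KO Uqcr10 went from 2816 to 4334 (median 3120) to 1792 to 2666 (median 2029), and in IRS2KO from 2934 to 3858 (median 3277) to 1529 to 2787 (median 2119). Neither pair of ranges overlapped.

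Among the complex IV genes without a heart form in the list of pairs, Cox4i1, the general form of the largest nuclear subunit, was 1.52-fold lower in WT, 1.98-fold in IRS1KO and 1.81-fold in IRS2KO. Its rarer isoform Cox4i2, known from lung and from hypoxic cells, was at 77.7 ± 12.1 normalised counts in WT sham and 47.8 ± 8.06 after TAC. Cox4i2 went from 91.3 ± 20.3 to 42.3 ± 13.1 in IRS1KO and from 75.2 ± 11.4 to 53.4 ± 17.5 in IRS2KO. All 3 falls passed the test, with log2 changes of -0.69, -1.11 and -0.54. The IRS2KO call was lost without replicate 6 of IRS2KO TAC (adjusted p = 0.0540, limma) and at the same total per library (-0.20, adjusted p = 0.254). Cox5a, Cox5b, Cox6b1, Cox6c, Cox7b and Cox7c fell in every genotype, by log2 changes between -0.55 (Cox6c) and -0.40 (Cox6b1) in WT. The WT call of Cox5a was lost in 4 of the 11 fits that left out 1 library (adjusted p up to 0.160, limma). It was also lost with no filter (0.06385) and without the sham libraries numbered 1 (0.08805). That of Cox6b1 was lost without replicate 3 of WT TAC (0.0752). The supercomplex factor Cox7a2l had the smallest fall among the complex IV genes that passed as lower in WT, at -0.28 (SE 0.11). In IRS1KO and IRS2KO, Cox7a2l fell by 0.39 and 0.35 on the log2 scale. At the same total per library Cox7a2l passed in no genotype (-0.02, -0.08 and -0.02), and the WT call was also lost without replicate 3 of WT TAC (adjusted p = 0.131, limma).

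In complex V, the WT log2 changes of the 5 subunits of the catalytic F1 head ran from -0.72 (Atp5a1) to -0.27 (Atp5d). Atp5c1 and Atp5e changed by -0.62 and -0.55. Differences between these subunits were not tested. Atp5a1 (alpha), the largest fall of the complex in WT, ranged from 57670 to 68157 normalised counts (median 62946) in WT sham and stood at 38753, 50241, 27209, 42576 and 35563 after TAC. In IRS1KO Atp5a1 went from 54275 to 64484 (median 58303) to 22568 to 41757 (median 27056), and in IRS2KO from 59449 to 67161 (median 63333) to 19277 to 50274 (median 29332). Sham and TAC did not overlap in any genotype, and the folds were 1.62, 2.02 and 1.92. With quantile normalisation the WT change of Atp5a1 went from -0.72 to -0.31 and did not pass (adjusted p = 0.0628, limma). Atp5b, the beta subunit that forms the catalytic site, was 1.51-fold, 1.88-fold and 1.81-fold lower; with quantile normalisation its WT change went from -0.62 to -0.12 (adjusted p = 0.320, limma). Atp5d, the delta subunit of the central stalk, was 1.19-fold lower in WT without passing the test, and fell by 0.59 and 0.45 on the log2 scale in IRS1KO and IRS2KO. In WT Atp5d did pass as lower with the replicate block (adjusted p = 0.0427, limma) and without replicate 2 of WT TAC (0.0414). It also passed without the 3 TAC libraries nearest to sham (0.02255). The c-ring that turns with the proton flow is encoded by Atp5g1, Atp5g2 and Atp5g3, which give the same mature protein. Atp5g2 had the smallest called change of complex V in WT. It ranged from 1272 to 1519 (median 1475) in WT sham and stood at 1177, 1283, 892, 1203 and 1148 after TAC, where 1 library overlapped the sham range. In IRS1KO Atp5g2 went from 1336 to 1807 (median 1478) to 870 to 1206 (median 961), without overlap. In IRS2KO it went from 1331 to 1648 (median 1445) to 890 to 1385 (median 1127), with overlap. Its log2 changes were -0.34 (SE 0.10), -0.60 (SE 0.10) and -0.38 (SE 0.10), beside -0.56, -0.95 and -0.87 for Atp5g1 and -0.52, -0.83 and -0.80 for Atp5g3. At the same total per library Atp5g2 did not pass in WT (-0.08, adjusted p = 0.330, limma) or in IRS2KO (-0.04, adjusted p = 0.617). The peripheral stalk genes Atp5f1, Atp5h, Atp5j and Atp5o fell in every genotype, by log2 changes between -0.58 (Atp5h) and -0.46 (Atp5f1) in WT. Of the small membrane subunits, Atp5k fell most in WT (-0.60), followed by Atp5j2 (-0.49), Atp5mpl (-0.35) and Atp5l (-0.35). The WT calls of Atp5mpl and Atp5l were near the threshold. That of Atp5mpl was lost in all but 2 of the fits that left out 1 library (adjusted p from 0.0509 to 0.159 where lost, limma), with no filter, with edgeR (adjusted p = 0.0575) and at the same total per library (-0.09). That of Atp5l was lost without replicate 1, 5 or 6 of WT sham or 1, 3 or 6 of WT TAC (adjusted p from 0.0588 to 0.131), with no filter and at the same total per library (-0.09).

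The heart forms of complex IV subunits were among the largest falls. Cox7a1, Cox8b and Cox6a2 held ranks 1, 2 and 3 among the 42 genes in WT and in IRS1KO, and ranks 1, 2 and 4 in IRS2KO, where Atp5a1 held rank 3. With quantile normalisation Cox4i2 (-0.93) lay below Cox7a1 (-0.86) in WT. Per kilobase of exon, Cox6a2 had the highest mean level of the 42 genes over all libraries, Cox8b ranked 4 and Cox7a1 ranked 6, whereas Cox7a2, Cox8a and Cox6a1 ranked 21, 33 and 37. The length used was the union of all annotated exons, 680 bases for Cox6a2, 3135 for Atp5a1 and 4237 for Atp5b. Undivided means were 10786, 47882 and 57861, so these ranks, and the levels per kilobase below, depend on that length. All 3 heart form genes lie on chromosome 7, which carries 6 of the 44 genes, and the general forms lie on chromosomes 5, 9 and 19.

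Cox7a1 (GRCm38 chr7:30184144-30186078, plus strand) ranged from 6041 to 7847 normalised counts in WT sham, with a median of 6542. In WT TAC it stood at 3420, 4816, 2131, 4082 and 3169. All 5 lay below every sham library. In IRS1KO Cox7a1 went from 5390 to 8479 (median 6432) in sham to 1787 to 3458 (median 2094) after TAC. In IRS2KO it went from 6139 to 7443 (median 6621) to 1492 to 4721 (median 2277). The folds of the means were 1.92, 2.92 and 2.48, and the log2 changes were -0.99 (SE 0.22, adjusted p = 0.000381), -1.57 (SE 0.21, adjusted p = 1.56e-07) and -1.43 (SE 0.21, adjusted p = 8.20e-07, limma). Its general counterpart Cox7a2 (chr9:79755361-79759878, minus strand) fell less. Cox7a2 ranged from 2886 to 3747 (median 3091) in WT sham and stood at 2647, 2918, 1946, 2865 and 2648 in WT TAC, where replicate 2 overlapped the sham range. It went from 2854 to 4259 (median 3159) to 1792 to 2766 (median 2026) in IRS1KO and from 2900 to 3748 (median 3160) to 1625 to 2985 (median 2178) in IRS2KO. The folds were 1.23 in WT, which did not pass the test, 1.54 in IRS1KO (adjusted p = 0.000111, limma) and 1.44 in IRS2KO (adjusted p = 0.000461). In WT Cox7a2 did pass as lower with only the compared groups in the fit (adjusted p = 0.0224), with the replicate block (0.0197), without replicate 3 of WT sham (0.0492), without replicate 2 of WT TAC (0.0385) and without the 3 TAC libraries nearest to sham (0.0171).

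Cox8b (chr7:140898945-140900446, minus strand) ranged from 4377 to 5366 in WT sham, with a median of 4913, and stood at 2716, 3616, 1662, 3337 and 2539 in WT TAC. In IRS1KO Cox8b went from 4214 to 5843 (median 4834) to 1509 to 3085 (median 1835), and in IRS2KO from 4398 to 5566 (median 4786) to 1132 to 3607 (median 1953). No TAC library overlapped its sham group, and the folds were 1.78, 2.48 and 2.23 (adjusted p = 0.00115, 1.60e-06 and 4.39e-06, limma). Cox8a (chr19:7215153-7217616, minus strand) had estimates above 0. It ranged from 744 to 1072 (median 855) in WT sham and stood at 1067, 1051, 854, 1013 and 1030 in WT TAC. In IRS1KO Cox8a ranged from 758 to 1027 (median 879) in sham and 868 to 1066 (median 950) after TAC, and in IRS2KO from 836 to 1048 (median 889) and 883 to 1129 (median 930). The ranges overlapped in every genotype. Its log2 change was 0.22 in WT (SE 0.09, adjusted p = 0.0341, limma), 0.14 in IRS1KO (95% interval -0.03 to 0.31) and 0.10 in IRS2KO (-0.07 to 0.28). The WT rise was lost when any of replicates 3, 4 or 6 of WT sham or 1, 2, 5 or 6 of WT TAC was left out (adjusted p between 0.05589 and 0.09319).

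Cox6a2 (chr7:128205435-128206387, minus strand) ranged from 13384 to 15750 in WT sham, with a median of 14744, and stood at 8202, 11818, 5410, 8839 and 7725 in WT TAC. In IRS1KO Cox6a2 went from 13260 to 17887 (median 13925) to 4491 to 9057 (median 5741), and in IRS2KO from 12055 to 15340 (median 13396) to 3957 to 11987 (median 6519). Sham and TAC did not overlap, although the highest IRS2KO TAC library came close to the lowest sham library. The folds were 1.73, 2.39 and 1.86 (adjusted p = 0.000795, 7.18e-07 and 3.85e-05, limma). Cox6a1 (chr5:115345642-115348981, minus strand) went the other way. It ranged from 624.8 to 736 (median 707) in WT sham and stood at 1040, 1078, 891, 1001 and 1016 in WT TAC. In IRS1KO Cox6a1 went from 581 to 770 (median 679) to 902 to 1034 (median 944), and in IRS2KO from 689 to 846 (median 714) to 897 to 1249 (median 998). Every TAC library was above every sham library of its genotype. The rise was 1.45-fold in WT, 1.41-fold in IRS1KO and 1.44-fold in IRS2KO, with log2 changes of 0.54, 0.50 and 0.51 (SE 0.08 in each).

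**Figure D3:**
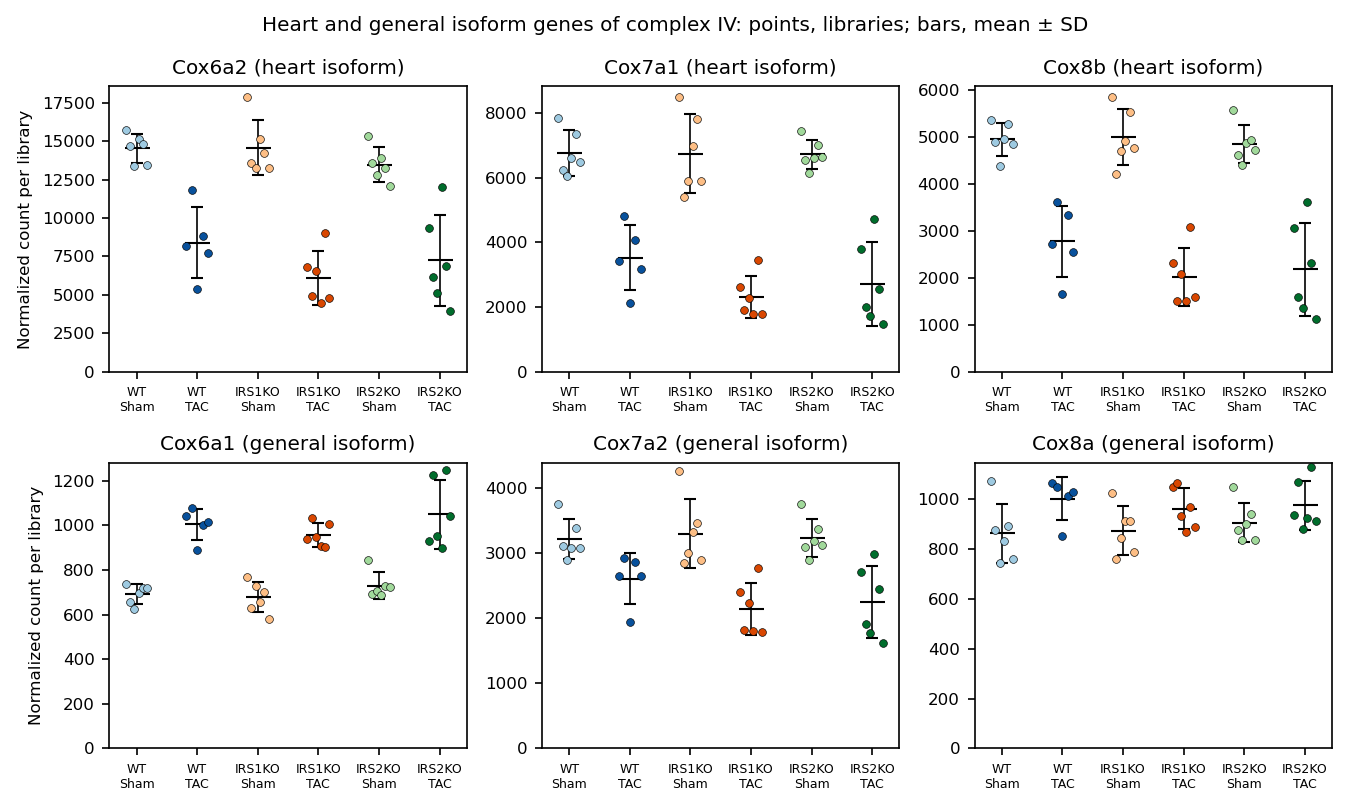
Normalised counts of the heart form genes (upper row) and general form genes (lower row) of complex IV subunits 6a, 7a and 8, by group; each point is a library and bars give mean ± SD. Cox6a2, Cox7a1 and Cox8b are lower in every TAC library than in any sham library of the same genotype, and Cox6a1 is higher in every TAC library.

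The ratio of heart to general form in each library was tested by itself, since a scaling factor of the library cancels in it. A shift in the cell types of the tissue does not cancel, and its part in the ratios was not tested. Per kilobase of exon, Cox6a2 exceeded Cox6a1 by 21.7 ± 1.36 times in WT sham hearts and by 8.54 ± 1.86 times after TAC. Cox7a1 exceeded Cox7a2 by 3.71 ± 0.102 times in sham and 2.35 ± 0.381 times after TAC. Cox8b exceeded Cox8a by 9.93 ± 0.782 times in sham and 4.71 ± 1.07 times after TAC. Per kilobase, the heart form remained the more abundant transcript of each pair in every group. Without division by exon length, Cox7a1 lay below Cox7a2 in IRS1KO TAC replicate 4 and in IRS2KO TAC replicates 3 and 6. The share of the heart form in WT, per kilobase, went from 95.6 to 89.2% for subunit 6a. It went from 78.8 to 69.8% for subunit 7a and from 90.8 to 82.0% for subunit 8.

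In the knockouts the same ratios after TAC were 6.65 ± 2.15 (IRS1KO) and 7.42 ± 3.83 (IRS2KO) for Cox6a2 over Cox6a1, 1.88 ± 0.170 and 2.05 ± 0.472 for Cox7a1 over Cox7a2, and 3.60 ± 1.06 and 3.87 ± 1.87 for Cox8b over Cox8a. The sham ratios were 22.2 ± 2.05 and 19.1 ± 1.27, 3.60 ± 0.221 and 3.67 ± 0.0903, and 9.82 ± 0.497 and 9.20 ± 0.251. Sham and TAC libraries overlapped in none of the 9 comparisons. The log2 ratio of Cox6a2 over Cox6a1 changed by -1.37 in WT, -1.79 in IRS1KO and -1.504 in IRS2KO. For Cox7a1 over Cox7a2 the changes were -0.67, -0.94 and -0.87, and for Cox8b over Cox8a -1.10, -1.49 and -1.38. Each of these 9 differences had p = 0.00216 in a two-sided exact permutation test, the smallest that groups of this size can give, and an adjusted p of 0.00505 over the 21 ratio tests.

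**Figure D4:**
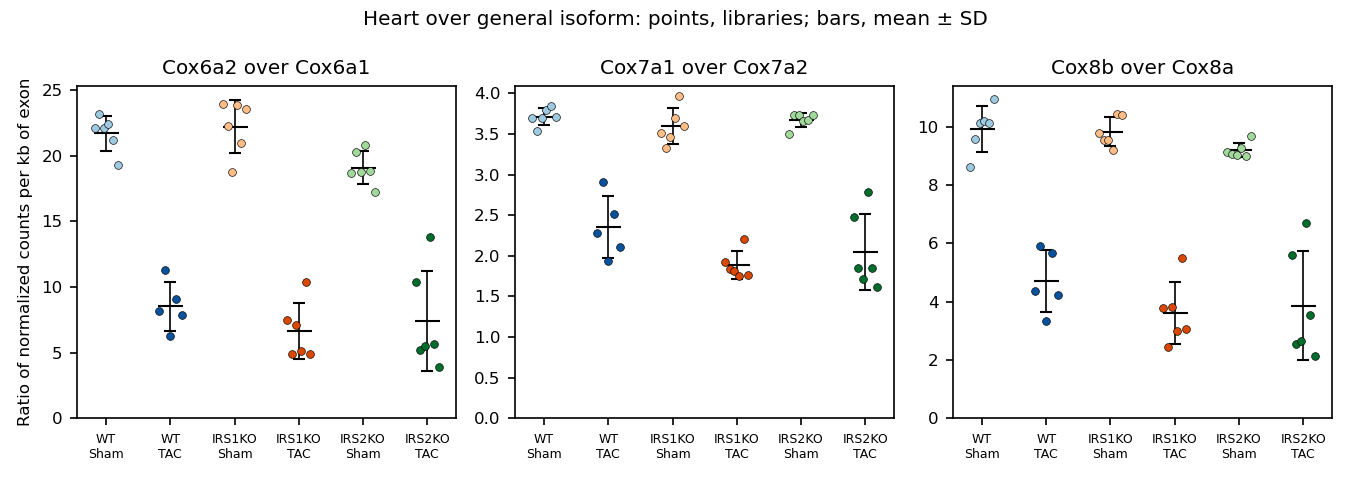
Ratio of heart form to general form per kilobase of exon for the 3 isoform pairs of complex IV, by group; each point is a library and bars give mean ± SD. In WT the mean ratio went from 21.7 to 8.54 for Cox6a2 over Cox6a1, from 3.71 to 2.35 for Cox7a1 over Cox7a2 and from 9.93 to 4.71 for Cox8b over Cox8a, and the points of sham and TAC are apart in each genotype.

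The bases before the start of these genes are shown because the partners of a pair, which encode forms of the same subunit, moved apart after TAC. RefSeq promoters (GRCm38.p6) were matched by symbol or synonym for 33 of the 44 genes. Cox6a2 was not among them, so Cox6a1 is shown without its heart form and that pair cannot be compared. The runs below are the 250 bases before the RefSeq start, 5′ to 3′ on the strand of the gene, with motif matches in capitals and the rest in lower case.
Cox7a1 (heart form, chr7:30183921-30184170, plus strand): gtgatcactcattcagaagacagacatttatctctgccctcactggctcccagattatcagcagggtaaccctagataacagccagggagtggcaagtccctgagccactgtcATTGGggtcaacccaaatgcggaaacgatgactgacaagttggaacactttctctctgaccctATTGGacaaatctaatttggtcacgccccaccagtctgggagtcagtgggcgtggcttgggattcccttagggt
Cox7a2 (general form, chr9:79759854-79760103, minus strand): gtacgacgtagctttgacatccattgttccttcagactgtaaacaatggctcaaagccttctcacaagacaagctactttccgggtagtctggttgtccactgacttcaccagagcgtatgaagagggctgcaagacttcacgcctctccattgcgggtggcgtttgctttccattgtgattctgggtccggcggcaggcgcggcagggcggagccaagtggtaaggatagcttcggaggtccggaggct
Cox8b (heart form, chr7:140900447-140900696, minus strand): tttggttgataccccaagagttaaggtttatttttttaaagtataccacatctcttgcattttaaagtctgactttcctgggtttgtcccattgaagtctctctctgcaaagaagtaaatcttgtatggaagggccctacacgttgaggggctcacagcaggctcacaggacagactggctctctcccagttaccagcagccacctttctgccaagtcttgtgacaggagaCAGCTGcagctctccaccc
Cox8a (general form, chr19:7217617-7217866, minus strand): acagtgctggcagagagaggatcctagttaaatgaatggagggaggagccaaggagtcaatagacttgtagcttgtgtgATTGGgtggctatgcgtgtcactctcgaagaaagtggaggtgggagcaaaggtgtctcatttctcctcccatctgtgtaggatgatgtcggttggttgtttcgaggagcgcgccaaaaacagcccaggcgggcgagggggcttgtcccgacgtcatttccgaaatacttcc
Cox6a1 (general form, chr5:115348959-115349208, minus strand): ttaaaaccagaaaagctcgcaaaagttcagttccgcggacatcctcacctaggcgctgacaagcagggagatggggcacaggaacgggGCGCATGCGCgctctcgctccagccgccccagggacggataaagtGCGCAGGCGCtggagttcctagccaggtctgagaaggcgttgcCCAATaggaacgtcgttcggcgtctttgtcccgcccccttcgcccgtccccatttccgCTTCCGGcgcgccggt

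The motifs searched, on both strands, were CCGGAAG for GABPA and other ETS factors, the NRF1 motif by name, AAGGTCA for the estrogen-related receptors, CAGCTG for the E-box common at muscle genes, TATAAA for the core promoter element of that name, CCAAT for NF-Y, AAGATGGCG for YY1 and the MEF2 motif by name. NRF1 and GABPA are known as activators of nuclear genes for respiratory subunits. The Cox6a1 window held 2 NRF1 matches, at -162 to -153 and -117 to -108 from the start, a CCAAT match at -74 to -70 and a CCGGAAG match at -16 to -10. The Cox7a1 window held 2 CCAAT matches, at -137 to -133 and -74 to -70. The Cox8a window held a CCAAT match at -171 to -167, the Cox8b window a CAGCTG match at -19 to -14, and the Cox7a2 window none of them. Among the 33 matched subunit genes, 24.2% held CCGGAAG, 15.2% the NRF1 motif and 54.5% CCAAT, where 7.83%, 4.23% and 37.5% of the 27025 genes with a RefSeq promoter did. CAGCTG was in 6.06% of the subunit genes against 14.7% of all genes, and TATAAA likewise in 6.06% against 14.3%. The estrogen-related receptor motif was in 6.06% against 4.70%, AAGATGGCG in 3.03% against 0.711%, and the MEF2 motif in 0% against 3.42%. These shares describe letters in the windows, and no binding was measured.

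In sham hearts 0 of the 42 genes passed the limma test for IRS1KO against WT, where 2.00% of all tested genes were higher and 2.65% lower, and 0 passed for IRS2KO against WT, where 0% of all genes were called. At an unadjusted p below 0.05 there were 1 (Atp5s) and 0, and edgeR and DESeq2 also called 0 in both comparisons. The median log2 difference was -0.03 for IRS1KO. The libraries of the knockouts overlapped those of WT for every one of the 42 genes, where 2.34% of all tested genes were higher and 3.45% lower without overlap in IRS1KO, and 0.438% and 0.241% in IRS2KO. The estimates ran from -0.34 to 0.21 for IRS1KO, within 95% intervals from -0.61 to 0.59, and from -0.11 to 0.08 for IRS2KO, within intervals from -0.49 to 0.42. The spread of each gene was estimated over all 6 groups together, so these intervals also hold the spread among TAC libraries. With only the compared groups in the fit, 1 gene was lower in IRS1KO, and the share of all tested genes in that fit is not given here.

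After TAC the subunit genes were lower in IRS1KO than in WT by estimate, mostly without passing the test. All 42 estimates were below 0 (40 with each library scaled to the same total), with a median log2 difference of -0.38 and a median of 0.00 over all tested genes. A single gene passed, Atp5s, where 2.68% of all tested genes were called lower. Atp5s stood at 198, 262, 178, 217 and 227 normalised counts in WT TAC and ranged from 118 to 179 (median 149) in IRS1KO TAC. The ranges overlapped at 1 library, and the log2 difference was -0.56 (SE 0.14, adjusted p = 0.0130, limma). In sham hearts Atp5s was at 306 ± 32.7 in WT and 240 ± 19.7 in IRS1KO, a log2 difference of -0.34 that did not pass (adjusted p = 0.158). The call after TAC was lost without replicate 2 of WT TAC (adjusted p = 0.0605, limma), when 0 genes passed. Without replicate 3 of WT TAC 18 genes passed as lower, and without replicate 5 of IRS1KO TAC 16 did. The 2.68% belongs to the fit with all libraries, and the shares of all tested genes in these fits are not given here. At an unadjusted p below 0.05, 31 of the 42 were lower. The share of all tested genes at that threshold was not counted, and the subunit genes ranked alike across the libraries of a group. Groups overlapped for all 42, where 1.45% of all tested genes were higher and 1.32% lower without overlap. The estimates ran from -0.60 (Cox7a1, adjusted p = 0.107) to -0.06 (Cox8a).

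For IRS2KO against WT after TAC 0 of the 42 passed the limma test, as did 0% of all tested genes in either direction. Estimates were below 0 for 40 genes, with a median log2 difference of -0.29. The exceptions were Cox6a1 (0.05) and Cox4i2 (0.11). An unadjusted p below 0.05 was found for 8 genes, and the share of all tested genes at that threshold was not counted. With edgeR and DESeq2, 0 were called as well. The 95% intervals ran from -0.90 to 0.51. Again the groups overlapped for all 42 genes, where 0.168% of all tested genes were higher and 0.0584% lower without overlap. Without the 3 TAC libraries nearest to sham, 7 genes passed as lower, and the share of all tested genes in that fit is not given here. That omission was chosen after seeing the data. It removed WT TAC replicate 2 and IRS2KO TAC replicates 4 and 1, so more libraries near sham left IRS2KO than WT.

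The difference between the TAC responses was tested in the same model. For IRS1KO minus WT 0 subunit genes passed (0.0365% of all genes were higher and 0.0730% lower), 1 had an unadjusted p below 0.05, and the median was -0.32. For IRS2KO minus WT 0 passed (0% of all genes), 0 had an unadjusted p below 0.05, and the median was -0.28. Again edgeR and DESeq2 called 0 in both. For Cox7a1 the difference in response was -0.58 (95% interval -1.19 to 0.03) in IRS1KO and -0.45 (-1.06 to 0.16) in IRS2KO. For Cox6a1 it was -0.04 (-0.26 to 0.19) and -0.02 (-0.25 to 0.20). The larger falls in the knockouts were therefore not shown to differ from those in WT.

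The isoform ratios passed the test between genotypes in 2 of 12 comparisons. The adjustment ran over all 21 ratio tests, including those of TAC against sham, which all had the smallest possible p. Those tests lower the adjusted p of the others, and an adjustment over the 12 comparisons of genotypes alone was not run. In sham hearts the log2 ratio of Cox6a2 over Cox6a1 was lower in IRS2KO than in WT by 0.19 (difference -0.19, exact permutation p = 0.00866, adjusted p = 0.0182). It was 4.20 ± 0.0966 in IRS2KO and 4.39 ± 0.0929 in WT, with overlapping ranges. This call was lost without the sham libraries numbered 1 (exact permutation, adjusted p = 0.0556). In the exact sign-flip test over same-numbered pairs its adjusted p was 0.0938. That test cannot decide, since after adjustment no ratio could pass it, and no ratio of TAC against sham did. After TAC the log2 ratio of Cox7a1 over Cox7a2 was lower in IRS1KO than in WT, at 0.09 ± 0.124 against 0.40 ± 0.229 (difference -0.31, exact permutation p = 0.0152, adjusted p = 0.0289), again with overlap. This call was lost (adjusted p of 0.0606 to 0.0636) without replicate 2 of WT TAC or any of replicates 2, 3, 4 and 6 of IRS1KO TAC. Whether the TAC response of the ratios differed between genotypes was not tested.

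Other genes of the chain were read from fixed lists, to be set against the 26.6% (WT), 31.7% (IRS1KO) and 31.1% (IRS2KO) of all tested genes that fell. All 36 tested subunits of complex I fell in IRS1KO and IRS2KO and 35 in WT, with median log2 changes of -0.58 in WT, -0.93 in IRS1KO and -0.83 in IRS2KO. Ndufa10, an accessory subunit of complex I, fell by 0.60 on the log2 scale in WT. Complex II had 3 of 4 genes lower in WT (Sdha, Sdhb and Sdhc) and 4 of 4 in the knockouts. Of the subunits encoded in the mitochondrial genome, 5 of 6 fell in WT and 6 of 6 in the knockouts; mt-Co3, of the catalytic core of complex IV, changed by -0.60, -1.08 and -0.92. Cycs, the cytochrome c that links complexes III and IV, changed by -0.33 in WT (adjusted p = 0.0722, limma) and fell by 0.62 and 0.64 in the knockouts.

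Assembly factors help to build the complexes without staying in them. For complex IV 10 of 22 fell in WT, 15 in IRS1KO and 12 in IRS2KO. Those that rose were 1, 1 and 3, where 28.3%, 32.4% and 31.3% of all tested genes rose. Median log2 changes of the 22 factors were -0.19, -0.32 and -0.28. Cox19, a copper-related factor of the intermembrane space, rose in each genotype, by 0.65 (SE 0.10) in WT, 0.66 in IRS1KO and 0.86 in IRS2KO. Lrpprc, which stabilises mitochondrial mRNAs, fell by 0.67, 0.80 and 0.80. Coa4 was higher in IRS1KO than in WT in sham (0.73, SE 0.10, adjusted p = 1.75e-06, limma) and after TAC (0.57, SE 0.10, adjusted p = 0.000279). For complex III, 2 of 6 factors fell in WT, 5 in IRS1KO and 2 in IRS2KO, which in WT and IRS2KO is near the share of all genes. For complex V 4 of 5, 5 and 4 fell; Fmc1 changed most in WT, by -0.77, and by -1.24 and -1.08 in the knockouts.

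Markers of cell types changed after TAC as well, in both directions. Among all tested genes 28.3% rose and 26.6% fell in WT, 32.4% and 31.7% in IRS1KO, and 31.3% and 31.1% in IRS2KO. Of 10 cardiomyocyte markers, 8 fell in WT, 7 in IRS1KO and 8 in IRS2KO, while Myh7 rose in each genotype and Actc1 in IRS2KO, with median log2 changes of -0.82, -1.20 and -1.07. Their summed level was 1012629 to 1140030 in WT sham and 535948 to 968852 in WT TAC. In IRS1KO it was 984718 to 1118860 in sham and 425867 to 805090 after TAC, and in IRS2KO 1011607 to 1103164 and 442512 to 974103. All 10 macrophage markers rose in each genotype. Their sum was 3273 to 4598 over all sham libraries and 6649 to 21868 over all TAC libraries. Of 8 fibroblast markers 7, 6 and 6 rose and 0, 1 and 1 fell, and their sum went from 11604 to 15797 in sham to 41324 to 147029 after TAC. Endothelial markers fell for 5, 7 and 6 of 8, and erythroid markers for 5, 4 and 5 of 5. Of 3 tested atrial markers 1 rose and 1 fell in each genotype, which is near the shares of all genes. Of 4 tested skeletal muscle markers 2 rose in each, and 2, 1 and 1 fell. The single adipocyte marker that passed the filter was called only in IRS1KO, as higher. Among the adipocyte markers Adipoq and Ucp1 were at 0 to 5.13 and 0 to 1.28, and Cidea at 195 to 478. Among the skeletal muscle markers Myh1, Myh2 and Myod1 were at 0 to 2.86, 0 to 1.13 and 0 to 2.11. Acta1 and Tnnt3 of that list rose in each genotype (log2 changes of 1.84 and 2.45 in WT) and Ckm fell in each, with Tnnt3 reaching 135 at most. The part of the shift in cell types in the fall of the subunit genes, in the rise of Cox6a1 and in the isoform ratios was not tested.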

How the data were processed

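RNA from the heart apex (mirVana total RNA, TruSeq Stranded mRNA libraries, per the labels' protocols) was deposited by the authors as 1 table of normalised counts per gene, a signal divided by size factors. HISAT2 2.0.6, HTSeq 0.7.1, DESeq2 and GRCm38 are named, without roles, in the submitters' processing notes; the annotation version was not stated there. Whole reads were recovered from 100% of the deposited values (tolerance 0.001), and 0 other value columns were left unused. Depth was 11707111 to 14609467 reads per library.

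Genes with a mean of at least 10 were tested on log2(value + 1) with limma 3.58.1 (R 4.3.3, trend and robust), with 6 group means over all 35 libraries, two-sided, with Benjamini-Hochberg adjustment within each comparison. Isoform ratios used exact permutation tests. Scripts were tested on simulated data. Alternatives were edgeR 4.0.16 and DESeq2 1.42.0 on recovered reads, scalings, filters, pseudocounts, a replicate block and omitted libraries. The members and lists were chosen with earlier results of these data known. Values by library (each WT TAC library; lowest, median and highest in groups of 6) are given for the 6 isoform genes and, per complex, the called members with the largest and smallest WT change; between genotypes every called member is named, and from other lists up to 3 called genes by smallest p. Other genes are named as members. Exon lengths, the union of all annotated exons of a gene, came from GENCODE vM21 and promoters from RefSeq GRCm38.p6. A result on 1 gene of another list is not reported here.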

Additional observations from a re-analysis of the deposited data

Results flagged for a closer look

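Of 102 groups of values checked with Dixon's criterion, 12 held a library far from the others, where chance gives about 1 in 20. The groups were not independent, since the read shares of the complexes add up to that of all subunit genes. The same libraries therefore recur below, and the 12 cannot be read as separate events. Replicate 1 of IRS2KO sham had the highest Cox6a1 value, 846 against at most 726 in the others. Replicate 3 of WT TAC had the lowest Cox7a2 value, 1946 against 2647 for the next, and the lowest Cox8a value, 854 against 1013. Replicate 1 of IRS1KO sham had the highest percent of reads from complex III (0.585), complex IV (0.752), complex V (1.99) and all subunit genes (3.32). Replicate 1 of IRS2KO sham also had the highest such percentages, 0.531, 0.632, 1.80 and 2.96. The same library had the lowest log2 ratio of Cox7a1 over Cox7a2 in its group, 0.99 against 1.05 for the next.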

How the results depend on the processing

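The count of subunit genes that rose in WT was 1 with no filter, with only the compared groups in the fit, and without the 3 TAC libraries nearest to sham, and 1 to 2 when 1 library was left out. With each library scaled to the same total, 23 fell in WT, and 2 rose in IRS1KO and in IRS2KO; all tested genes then split into 6221 higher and 1583 lower in WT (3877 and 3638 as deposited), 7181 and 2164 in IRS1KO (4442 and 4335) and 7438 and 1890 in IRS2KO (4286 and 4260). Without the sham libraries numbered 1, 2 rose in IRS1KO. For the alternative fits between genotypes, the shares of all tested genes are not given here. For IRS1KO against WT, 1 was lower in sham with only the compared groups, and after TAC 4 were lower with the replicate block and 0 to 18 with 1 library left out. For IRS2KO against WT after TAC, 7 were lower without the 3 TAC libraries nearest to sham. The omission of those libraries and of the sham libraries numbered 1 was chosen after seeing the data.

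Same-numbered libraries were not treated as pairs, because the labels do not say whether the numbers pair them. Their correlations ran from -0.60 to 0.55 for IRS2KO against WT after TAC, and from 0.02 to 0.25 in sham. In both knockouts against WT in sham, and in TAC against sham in IRS1KO, 3 of 6 libraries correlated best with their own number. Fewer did so in the other comparisons. Whether libraries of the same number share an effect was not tested. With the replicate block, an exact sign-flip permutation test over pairs cannot go below p = 0.0625 with 5 pairs or 0.03125 with 6. In WT, IRS1KO and IRS2KO the log2 ratio changes after TAC in that test were -1.36, -1.79 and -1.50 for Cox6a2 over Cox6a1, -0.67, -0.94 and -0.87 for Cox7a1 over Cox7a2, and -1.10, -1.49 and -1.38 for Cox8b over Cox8a. For IRS2KO against WT in sham the block gave -0.19 for Cox6a2 over Cox6a1, and for IRS1KO against WT after TAC -0.29 for Cox7a1 over Cox7a2; adjusted p was 0.09375 or 0.1193 throughout.

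Without the sham libraries numbered 1, Cox6a2 over Cox6a1 in IRS2KO sham was -0.17 (exact permutation, adjusted p = 0.0556) and Cox8b over Cox8a -0.15 (0.03030). Without the 3 TAC libraries nearest to sham, Cox7a1 over Cox7a2 in IRS1KO after TAC was -0.23 (0.0538). Leaving out 1 library gave -0.38 to -0.23 for the latter. For IRS1KO against WT in sham it gave -0.0030 to 0.079 for Cox6a2 over Cox6a1 (below 0 without WT sham 6), -0.076 to -0.025 for Cox7a1 over Cox7a2 (called without IRS1KO sham 5, adjusted p = 0.0455) and -0.054 to 0.016 for Cox8b over Cox8a (0.016 without WT sham 6, 0.0048 without IRS1KO sham 4). For IRS2KO sham, Cox8b over Cox8a ran from -0.15 to -0.078 (called without WT sham 1, adjusted p = 0.0167). The cause of these changes was not tested.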
